A study of Mus musculus with 4 samples.

Results

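The genes described here are those that club cells and goblet cells, the secretory cells of the airway lining, use to coat the airway: secretoglobins (Scgb1a1, Scgb3a1, Scgb3a2), gel-forming mucins (Muc5b, Muc5ac), antimicrobial proteins of the BPI fold family (Bpifa1, Bpifb1), the mucin-folding protein Agr2, the anion exchanger Slc26a4 and the chitinase Chia1. A gene was taken as a member when a non-control probe of the array carried a RefSeq accession of that gene. Of the 10 genes, 9 were found in this way, on 11 probes, among 32300 genes or transcripts on the array; no accession of Scgb3a2 could be matched, so Scgb3a2 was not analysed here. Muc5ac and Chia1 had 2 probes each and the other 7 genes had 1.

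The samples were 4 pools of RNA from female ICR mice aged 6 months, each pool made from 8 mice and read on 1 array. For each genotype, Nrf2+/+ and Nrf2-/-, there was 1 pool of tumor and 1 pool of non-tumor lung. All animals, the controls included, had been injected intraperitoneally with urethane, a chemical carcinogen that induces lung adenomas, at 1 g/kg, and tissue was taken 16 weeks later. Tumors were surface tumors between 1.0 and 1.5 mm across, so non-tumor lung means lung of a carcinogen-treated animal and not lung of an untreated one. Nrf2 (gene symbol Nfe2l2) is the transcription factor that drives antioxidant and detoxification genes; how the allele was made and whether tumor and non-tumor lung came from the same mice are not given in the sources used here.

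Club cells are dome-shaped cells of the bronchioles that secrete secretoglobins and hold xenobiotic-metabolising enzymes. They renew the airway epithelium and can turn into mucus-making goblet cells under allergic or inflammatory stimuli, a switch that involves the transcription factors Spdef and Foxa3. In mouse lung the mucin made without a stimulus is mainly Muc5b, while Muc5ac is the mucin typical of induced goblet cells. Slc26a4 (pendrin) exchanges chloride for bicarbonate and other anions at the surface of airway cells, and its expression is known to respond to the cytokines of allergic inflammation.

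With 1 array per group there were no replicates, so no difference between arrays carries a replicate test, and each value describes a pair of pools. A level is given as the spot's processed signal divided by the 75th percentile of signal on its array, called the relative level, or as the signal itself in intensity units for dim spots. Levels of different genes come from different probes and cannot be set against each other. An order in which both pools of a tissue or genotype lie above both others is description only. The share of all genes with such an order was not counted. The error beside a level or a log2 difference is the scanner software's own estimate for the spot; it is about 0.20 on the log2 scale for a difference between bright spots and covers measurement only. A difference of at least 2-fold (1 on the log2 scale) was counted as past the mark. Where a spot was not well above background on the dimmer array, the difference is also given as a lower bound, written "at least", computed from the lowest signal that was well above background on that array or from the spot's own signal if higher. Such a bound leaves out the spot's error and holds only for the background subtraction used.

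The arrays had median signals between 47.2 and 79.2, with 54.2% to 63.5% of spots well above background and none saturated; both tumor arrays were the dimmer ones. Nfe2l2 checked the genotype labels: its signals were 7913 and 7478 in Nrf2+/+ non-tumor lung and tumor, and 5.13 and 6.94, not well above background, in the Nrf2-/- pools. The Nrf2+/+ non-tumor array lay alone on slide 1 and the other 3 arrays on slide 2. Comparisons that involve Nrf2+/+ non-tumor lung therefore crossed slides, and the effect of the slide on them was not tested; the other comparisons stayed on slide 2. In these pooled tissues fewer cells of a type and less RNA per cell cannot be told apart.

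**Figure D1:**
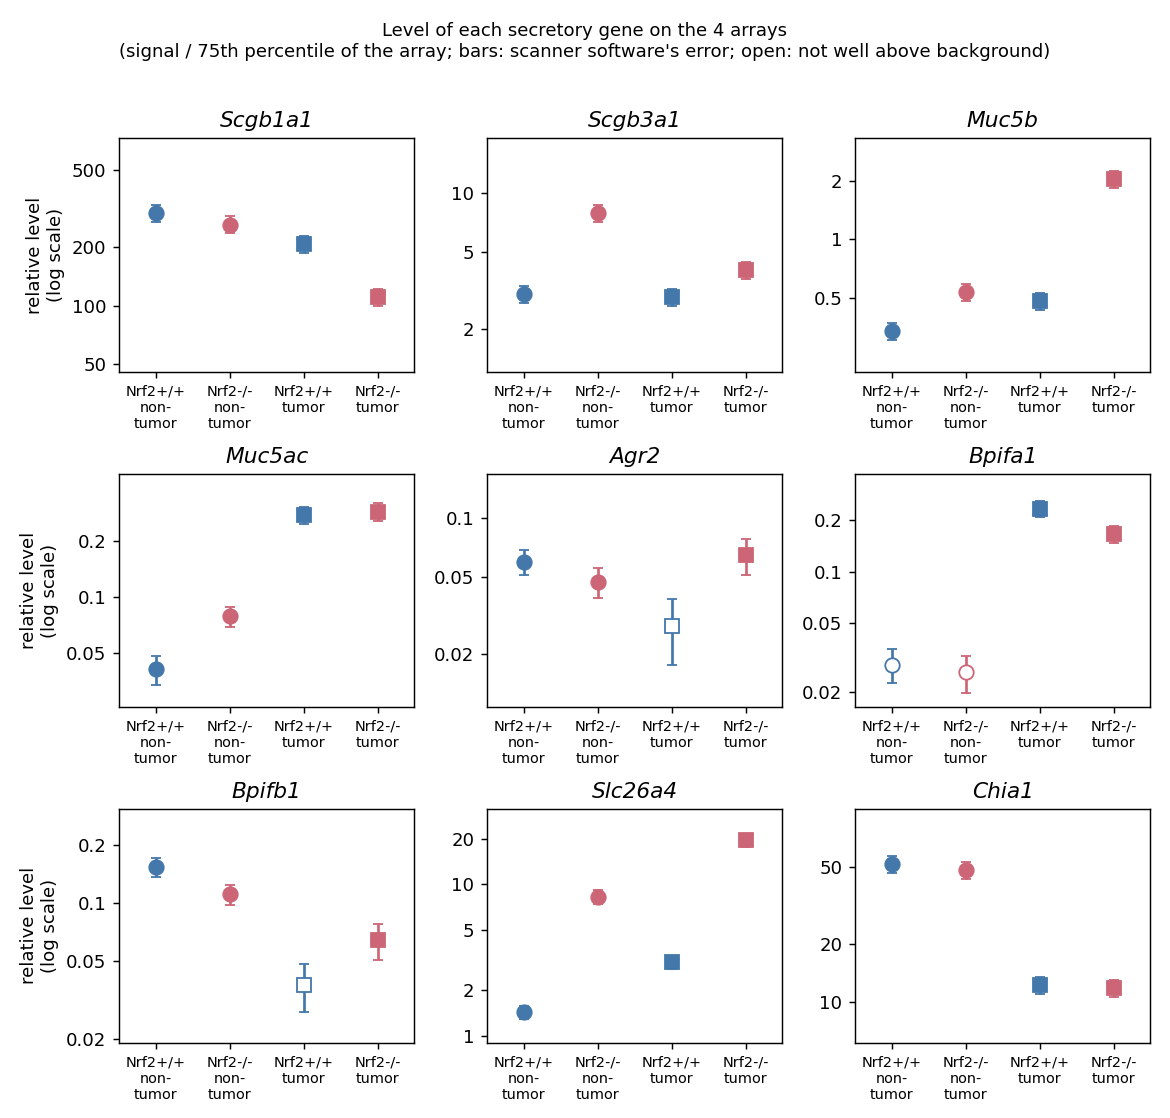
Relative level (processed signal divided by the 75th percentile of the array, log axis, a separate axis for each gene) of the 9 secretory genes on the 4 arrays, circles for non-tumor lung, squares for tumor, blue for Nrf2+/+ and red for Nrf2-/-. Bars are the scanner software's error of 1 spot and open symbols were not well above background; Slc26a4 has its highest point in Nrf2-/- tumor (19.7) and Chia1 has both tumor points (12.3 and 11.8) far below both non-tumor points.

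The secretory genes did not behave as a block in tumors. In tumors of both genotypes Muc5ac, Bpifa1 and Slc26a4 were higher and Chia1 was lower than in non-tumor lung, each by 2-fold or more. Muc5b was past 2-fold higher, and Scgb1a1 past 2-fold lower, in the Nrf2-/- tumor but not in the Nrf2+/+ tumor. In Nrf2-/- tissue Slc26a4 stood about as far above Nrf2+/+ in non-tumor lung (5.78-fold) as in tumor (6.39-fold), whereas the genotype difference of Muc5b was 4.25-fold in tumor and 1.59-fold in non-tumor lung.

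Promoter sequence is shown for 5 members in which RefSeq (build GRCm38.p6) gave an entry and a searched motif was found, so that a reader can see the motifs in place. Each line is the 250 bases before the transcription start, 5′ to 3′ on the strand of the gene. Capitals mark the TATA box, TATAAA, the NKX2-1 core motif, CTCAAG, which on the opposite strand reads CTTGAG, and in Bpifb1 the antioxidant response element core, TGACNNNGC, on the opposite strand. NKX2-1 is the transcription factor that marks lung epithelium.
Slc26a4: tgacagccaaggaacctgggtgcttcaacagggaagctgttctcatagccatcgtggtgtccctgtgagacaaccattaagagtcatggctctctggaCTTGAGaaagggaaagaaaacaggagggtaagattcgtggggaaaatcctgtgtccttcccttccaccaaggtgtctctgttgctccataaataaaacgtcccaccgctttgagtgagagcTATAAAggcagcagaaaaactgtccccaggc
Chia1: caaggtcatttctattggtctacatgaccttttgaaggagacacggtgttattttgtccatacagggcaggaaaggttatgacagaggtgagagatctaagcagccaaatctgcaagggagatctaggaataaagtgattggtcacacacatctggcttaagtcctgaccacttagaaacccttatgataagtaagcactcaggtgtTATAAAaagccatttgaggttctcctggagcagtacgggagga
Bpifa1: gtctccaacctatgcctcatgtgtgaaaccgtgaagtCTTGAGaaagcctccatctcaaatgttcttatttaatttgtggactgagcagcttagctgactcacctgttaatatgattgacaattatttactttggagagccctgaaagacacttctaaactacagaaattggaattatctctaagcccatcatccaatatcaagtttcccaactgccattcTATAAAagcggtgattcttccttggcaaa
Scgb3a1: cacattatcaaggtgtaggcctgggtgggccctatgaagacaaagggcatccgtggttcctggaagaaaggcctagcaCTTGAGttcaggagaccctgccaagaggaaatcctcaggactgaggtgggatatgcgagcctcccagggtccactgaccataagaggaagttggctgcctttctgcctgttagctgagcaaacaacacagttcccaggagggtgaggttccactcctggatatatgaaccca
Bpifb1: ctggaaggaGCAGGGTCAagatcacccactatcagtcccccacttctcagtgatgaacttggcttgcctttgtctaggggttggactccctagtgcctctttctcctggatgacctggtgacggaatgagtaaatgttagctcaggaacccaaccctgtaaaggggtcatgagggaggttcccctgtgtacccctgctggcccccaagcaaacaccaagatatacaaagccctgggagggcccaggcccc

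The windows lie at chr12:31559985-31560234 on the minus strand for Slc26a4, and on the plus strand at chr3:106113132-106113381 for Chia1, chr2:154142630-154142879 for Bpifa1, chr11:49663345-49663594 for Scgb3a1 and chr2:154190568-154190817 for Bpifb1, of whose 2 windows the one with the motif is shown. The TATA box began 31 bases before the start of Slc26a4, 29 before that of Bpifa1 and 43 before that of Chia1, and none was found for Scgb3a1 or Bpifb1. CTCAAG was present on the strand opposite to that of the gene, 152 bases before the start of Slc26a4, 213 before that of Bpifa1 and 172 before that of Scgb3a1. In all, 4 motifs were searched on both strands in 7 windows of 6 members: these 2, TGTTTAC, a forkhead motif, and TGACNNNGC, the core of the antioxidant response element through which Nrf2 acts. TGACNNNGC was found once, in 1 of the 2 windows of Bpifb1, 241 bases before the start, and TGTTTAC in none. Among 32851 promoters of the same length, 12.4% held TATAAA, 13.3% CTCAAG, 3.17% TGTTTAC and 10.2% TGACNNNGC. A match says only that these letters are present.

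Scgb1a1 encodes the main secreted protein of club cells. Its relative level was 301 ± 30.1 in Nrf2+/+ non-tumor lung, 262 ± 26.2 in Nrf2-/- non-tumor lung, 209 ± 20.9 in Nrf2+/+ tumor and 111 ± 11.1 in Nrf2-/- tumor. The first 3 pools lay within 2 errors of their neighbours in this order, and the Nrf2-/- tumor lay below them. The tumor difference was -0.53 ± 0.20 on the log2 scale in Nrf2+/+ and -1.24 ± 0.20 in Nrf2-/- mice, a 2.37-fold lower level in the latter. Between genotypes Scgb1a1 was lower in Nrf2-/- tumor by 1.88-fold and differed by 1.15-fold in non-tumor lung.

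Scgb3a1, a secretoglobin of the larger airways, followed another order. Its relative level was 7.90 ± 0.790 in Nrf2-/- non-tumor lung, against 4.02 ± 0.402 in tumor of the same genotype, 3.03 ± 0.303 in Nrf2+/+ non-tumor lung and 2.91 ± 0.291 in tumor of Nrf2+/+ mice. Only the Nrf2-/- non-tumor pool stood apart from its neighbour by more than 2 errors. Scgb3a1 was 2.61-fold higher in Nrf2-/- than in Nrf2+/+ non-tumor lung (1.38 ± 0.20), and 1.97-fold lower in Nrf2-/- tumor than in Nrf2-/- non-tumor lung (-0.98 ± 0.20). In Nrf2+/+ mice the tumor difference was -0.06 ± 0.20, within its error, and was 0.25 when arrays were scaled on their medians. Of 6 other secretoglobin genes that were looked up, 5 had a probe and 1 was well above background, Scgb1c1, at -1.45 in Nrf2-/- against Nrf2+/+ non-tumor lung, the opposite sign to Scgb3a1.

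Muc5b, the gel-forming mucin of resting airways, had a relative level of 0.337 ± 0.0344 in Nrf2+/+ non-tumor lung, 0.536 ± 0.0540 in Nrf2-/- non-tumor lung, 0.482 ± 0.0491 in Nrf2+/+ tumor and 2.05 ± 0.205 in Nrf2-/- tumor. The Nrf2-/- tumor pool was the high one; the middle pair did not differ by more than their error. Its tumor difference was 1.93 ± 0.20 in Nrf2-/- mice (3.82-fold) and 0.52 ± 0.21 in Nrf2+/+ mice (1.43-fold). The tumor differences of the genotypes thus lay 1.42 ± 0.29 apart.

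Muc5ac, the mucin of induced goblet cells, was dim in non-tumor lung. Its brighter probe had signals of 31.1 ± 5.38 in Nrf2+/+ and 58.5 ± 7.40 in Nrf2-/- non-tumor lung, against 152 ± 16.0 in Nrf2+/+ tumor and 168 ± 17.9 in Nrf2-/- tumor. All 4 spots were well above background, and both tumor spots exceeded both non-tumor spots. The tumor difference was 2.75 ± 0.29 (6.71-fold) in Nrf2+/+ and 1.87 ± 0.24 (3.64-fold) in Nrf2-/- mice, and tumors of the genotypes differed by 0.07 ± 0.22. After normexp background correction the tumor differences were 1.52 and 1.20, so these folds hold only for the background subtraction used. The other probe of Muc5ac was above background only in Nrf2+/+ non-tumor lung, with signals between 8.95 and 23.2, and did not show the higher level in tumor: its tumor differences were -0.92 ± 0.88 and 0.51 ± 0.55. With the mean of both probes the Nrf2+/+ tumor difference was 0.91. The values of Muc5ac therefore rest on 1 probe.

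Agr2, a protein disulfide isomerase that mucins need for folding, was near background. Its signals were 45.5 ± 6.70 in Nrf2+/+ non-tumor lung, 34.9 ± 6.13 in Nrf2-/- non-tumor lung, 15.6 ± 5.80, not well above background, in Nrf2+/+ tumor and 37.7 ± 7.98 in Nrf2-/- tumor. No pair of neighbours in this order differed by more than 2 errors. The measured differences past 2-fold, -1.09 in Nrf2+/+ tumor against non-tumor lung and 1.20 in Nrf2-/- against Nrf2+/+ tumor, were bounded only at 1.44-fold lower and 1.55-fold higher. After normexp background correction the first was -0.12 and the second 0.33.

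The BPI fold proteins bind lipids and bacterial surfaces in airway fluid. In non-tumor lung Bpifa1 had signals of 21.8 ± 4.89 in Nrf2+/+ and 19.2 ± 4.69 in Nrf2-/- mice, neither well above background. It had signals of 129 ± 13.7 in Nrf2+/+ tumor and 96.6 ± 11.3 in Nrf2-/- tumor. The gene was 8.09-fold higher in Nrf2+/+ tumor as measured (3.02 ± 0.36), a value that is also its bound. In Nrf2-/- tumor it was 6.38-fold higher as measured (2.67 ± 0.39), with a bound of 5.97-fold. After normexp correction the log2 differences were 1.48 and 1.22, so these folds hold only for the background subtraction used. Bpifb1 ran the other way, with signals of 116 ± 12.7 in Nrf2+/+ non-tumor lung, 82.5 ± 9.71 in Nrf2-/- non-tumor lung, 21.1 ± 5.88, not well above background, in Nrf2+/+ tumor and 37.7 ± 7.88 in Nrf2-/- tumor. Both non-tumor spots exceeded both tumor spots. Bpifb1 was at least 3.67-fold lower in Nrf2+/+ tumor (-2.01 as measured, -0.54 after normexp correction) and 1.72-fold lower in Nrf2-/- tumor (-0.79 ± 0.35).

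Bpifa1 and Bpifb1 are close neighbours on chromosome 2, with Bpifa5 between them in the RefSeq gene order. Bpifa5 was well above background on all 4 arrays and stood at -0.32 in Nrf2+/+ and 0.32 in Nrf2-/- tumor against non-tumor lung. Bpifa2, on the other side of Bpifa1 beyond Bpifa3, stood at 0.33 and 0.60. Among 5 or 6 measured relatives of the family, Lbp, which binds bacterial lipopolysaccharide in plasma, was higher in tumor (2.09 in Nrf2+/+ and 1.13 in Nrf2-/-), and Pltp, the phospholipid transfer protein, was lower (-1.53 and -1.04). Bpifb6 was well above background only in Nrf2+/+ non-tumor lung, with a signal of 120, and was at least 3.81-fold lower in Nrf2+/+ tumor and, in non-tumor lung, at least 5.72-fold lower in Nrf2-/- mice; both compare with the array on slide 1.

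Slc26a4 spanned 3.78 on the log2 scale over the 4 pools. Its relative level was 1.44 ± 0.144 in Nrf2+/+ non-tumor lung, 3.08 ± 0.308 in Nrf2+/+ tumor, 8.30 ± 0.830 in Nrf2-/- non-tumor lung and 19.7 ± 1.97 in tumor of Nrf2-/- mice. Each step in this order exceeded 2 errors, and both Nrf2-/- pools stood above both Nrf2+/+ pools. The gene was 5.78-fold higher in Nrf2-/- than in Nrf2+/+ non-tumor lung (2.53 ± 0.20) and 6.39-fold higher in Nrf2-/- than in Nrf2+/+ tumor (2.68 ± 0.20). Tumor exceeded non-tumor lung by 2.14-fold in Nrf2+/+ (1.10 ± 0.20) and 2.37-fold in Nrf2-/- mice (1.25 ± 0.20), values that scaling on spike-in probes turned to 0.86 and 0.96. The tumor differences of the genotypes lay 0.15 ± 0.29 apart, within their error. The genes next to Slc26a4, Cbll1 and Bcap29, lay between -0.10 and 0.38 in both genotype comparisons.

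Chia1 encodes acidic mammalian chitinase, which digests chitin from inhaled particles and in mouse lung is made by the distal airway. Its brighter probe had a relative level of 51.7 ± 5.17 in Nrf2+/+ non-tumor lung, 48.1 ± 4.81 in Nrf2-/- non-tumor lung, 12.3 ± 1.23 in Nrf2+/+ tumor and 11.8 ± 1.18 in Nrf2-/- tumor. Both tumor pools lay below both non-tumor pools, an order whose share over all genes was not counted. Chia1 was 4.21-fold lower in Nrf2+/+ tumor (-2.08 ± 0.20) and 4.06-fold lower in Nrf2-/- tumor (-2.02 ± 0.20); the other probe gave -2.50 and -2.27. The genotype differences were -0.10 ± 0.20 in non-tumor lung and -0.05 ± 0.20 in tumor, and the first changed sign in some settings; the other probe gave -0.35 ± 0.20, beyond its error, and -0.12 ± 0.20. Its neighbours were mixed: Chil3 and Chil4, chitinase-like genes that follow Chia1 in the gene order, stood at 0.33 and 0.11 in Nrf2+/+ tumor, and Pifo, a ciliary gene on its other side, at -1.92. Of 6 measured chitinase relatives none was past 2-fold lower in tumor, and Chil1, a chitinase-like protein without enzyme activity, was higher (3.16 in Nrf2+/+ and 2.10 in Nrf2-/-).

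**Figure D2:**
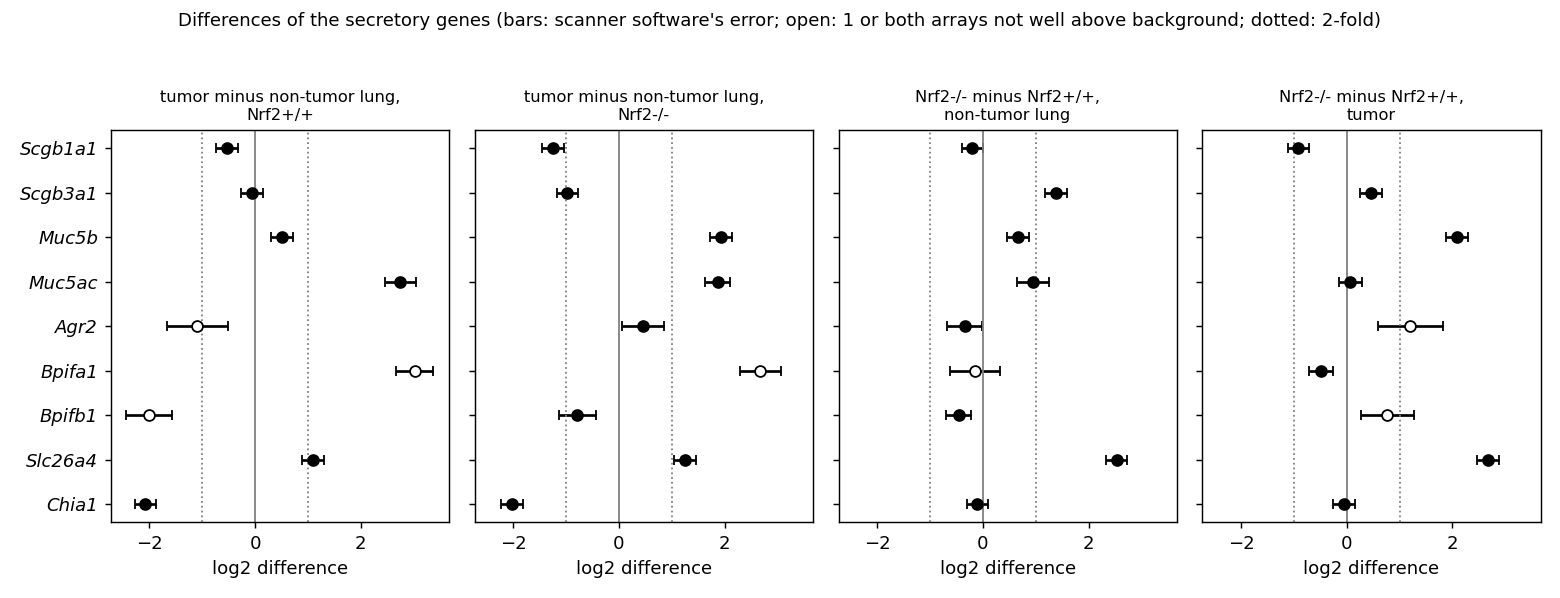
Log2 differences of the 9 secretory genes in the 4 comparisons, with the scanner software's error as bars, open symbols where 1 or both arrays were not well above background, and dotted lines at 2-fold. Slc26a4 lies past 2-fold in all 4 panels, Chia1 in both tumor panels and in neither genotype panel.

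Counted together, 3 of 9 secretory genes were at least 2-fold higher in Nrf2+/+ tumor (Muc5ac, Bpifa1 and Slc26a4), where 8.08% of 19913 measured genes were, and 3 were at least 2-fold lower (Bpifb1, Agr2 and Chia1), where 15.3% were; for Agr2 the bound was under 2-fold. In Nrf2-/- tumor 4 of 9 were higher (Muc5b, Muc5ac, Bpifa1 and Slc26a4) against 5.43% of 19426 genes, and 2 were lower (Scgb1a1 and Chia1) against 9.12%. In Nrf2-/- against Nrf2+/+ non-tumor lung 2 of 8 measured members were higher (Scgb3a1 and Slc26a4) against 3.04% of 20190 genes, and 0 were lower against 4.61%. In Nrf2-/- against Nrf2+/+ tumor 3 of 9 were higher (Muc5b, Agr2 and Slc26a4) against 4.29% of 17824 genes, and 0 were lower against 3.67%. These shares over all genes also belong beside the counts of the other gene lists below. The member medians were -0.06, 0.46, 0.28 and 0.46 in this order of comparisons, with medians of all genes between -0.03 and 0.02. The tumor comparisons of the genotypes used separate arrays, and the genotype comparisons used the same 4 arrays again.

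The tumor differences of the genotypes lay at least 2-fold apart for 3 of 9 members. They were Muc5b (1.42 ± 0.29), Bpifb1 (1.22 ± 0.55) and Agr2 (1.55 ± 0.70), all with the Nrf2-/- value above the Nrf2+/+ value, where 6.81% of 20553 genes lay so far apart in that direction and 3.98% in the other. For Bpifb1 and Agr2 the Nrf2+/+ tumor spot was not well above background; with the bound in its place the gaps were 1.09 and 0.98, so that Agr2 was no longer past 2-fold. Scgb3a1 (-0.92 ± 0.29), Muc5ac (-0.88 ± 0.38) and Scgb1a1 (-0.72 ± 0.29) had lower Nrf2-/- values and did not reach 2-fold. With 1 array per group these differences could not be tested.

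The fit across all genes was an additive model of tissue and genotype over the 4 arrays (limma, Benjamini-Hochberg adjustment over 20553 genes). It has 1 residual degree of freedom, and its spread measures departure from additivity rather than variation between animals. It called 0% of genes for either term at an adjusted p of 0.05; 6095 genes had an unadjusted p below 0.05 for tissue and 1910 for genotype, and so did 6 and 2 of the 9 members. The lowest adjusted p of a member for tissue was 0.0707, shared by Bpifa1 and Chia1, and over the processing settings that of Chia1 ran from 0.0032 to 0.090. For genotype it was 0.225 for Slc26a4, with a range from 0.0066 to 0.366. Whether a member passes this fit therefore depends on the setting.

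The other genes of club cells were looked up in a list of 24, which includes detoxification enzymes. Of 22 measured in Nrf2+/+ tumor, 12 were at least 2-fold lower and 2 higher, with a median of -1.38; in Nrf2-/- tumor 12 of 22 were lower and 1 higher, with a median of -1.06. Among them Cyp2f2, a cytochrome P450 that activates naphthalene in club cells, stood at -1.37 in Nrf2+/+ and -2.48 in Nrf2-/- tumor, and Cldn10, a tight-junction protein of club cells, at -2.11 and -2.55. Beside the medians of the list, Scgb1a1 stood at -0.53 and -1.24. Cbr2, a carbonyl reductase abundant in club cells, stood at 0.00 and -0.68. The named examples do not stand for the list. Of its 19 genes well above background on all 4 arrays, the tumor difference was lower in Nrf2-/- than in Nrf2+/+ mice for 9 and higher for 10. Between genotypes in tumor 5 of 20 were at least 2-fold lower in Nrf2-/- and none higher, such as Cckar, the cholecystokinin receptor (-3.22), and Cyp2f2 (-1.36); Scgb1a1 stood at -0.91 in the same comparison. In non-tumor lung 5 of 22 were lower in Nrf2-/- and none higher. Over all measured genes 4.61% were lower and 3.04% higher in non-tumor lung, and 3.67% and 4.29% in tumor. The list holds detoxification enzymes, a class that Nrf2 drives, and their part in these counts was not tested.

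Genes of goblet cells and submucosal glands, from a list of 30, were split. In Nrf2+/+ tumor 6 of 20 measured were at least 2-fold higher and 4 lower (median 0.08), and in Nrf2-/- tumor 7 of 19 were higher and 2 lower (median 0.56). The values ran from -2.39 to 4.13 in Nrf2+/+ tumor and from -3.20 to 2.85 in Nrf2-/- tumor. The genes past 2-fold lower are not named here. Of 5 measured relatives of the mucins, 3 were at least 2-fold higher in tumors of both genotypes and none lower: Muc20 (2.55 in Nrf2+/+ and 1.99 in Nrf2-/-), Muc1 (2.15 and 1.81) and Muc4 (1.95 and 2.62). These 3 genes are also on the list of 30 and are already part of its counts. The others were Cd164 (0.38 and 0.27) and Emcn, a sialomucin of blood vessels (-0.78 and -0.34). In Nrf2-/- against Nrf2+/+ tumor 5 of 17 goblet and gland genes were higher and 2 lower, with values from -1.60 to 3.17. Among the higher ones were Pigr, which carries immunoglobulin A across the epithelium (2.72), and Retnla, a resistin-like protein of allergic inflammation (1.59). Tff3, a trefoil peptide packed with mucins, was above background only in Nrf2-/- tumor, with a signal of 70.3, at least 2.89-fold over Nrf2+/+ tumor and at least 4.34-fold over non-tumor lung of the same genotype. Lcn2, a siderophore-binding protein, was higher in tumor by 4.13 in Nrf2+/+ and 2.61 in Nrf2-/- mice. Clca1, a secreted protein that marks induced goblet cells, was not well above background on any array, nor were Gcnt3 and Slc5a8.

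**Figure D3:**
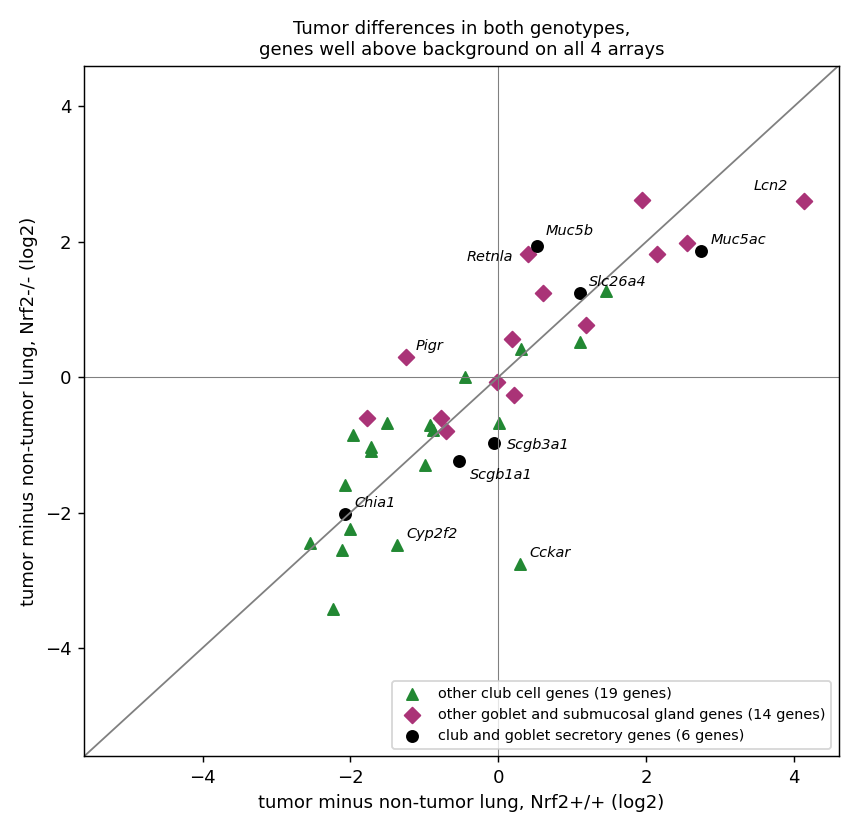
Log2 difference between tumor and non-tumor lung in Nrf2+/+ mice (x axis) and in Nrf2-/- mice (y axis) for genes well above background on all 4 arrays: 6 secretory genes (black circles), 19 other club cell genes (green triangles) and 14 other goblet and gland genes (purple diamonds), with the line of equal difference in grey. Muc5b, Retnla and Pigr lie above the line, Scgb1a1, Scgb3a1, Cyp2f2 and Cckar below it, and Chia1 and Slc26a4 close to it. These labelled genes do not stand for their lists. Below and above the line lie 9 and 10 of the other club cell genes, 7 and 7 of the goblet and gland genes, and 3 and 3 of the secretory genes.

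Of 26 regulators of the secretory lineage, 9 of 25 measured in Nrf2+/+ tumor were at least 2-fold higher and 2 lower, while in Nrf2-/- tumor 5 of 26 were higher and 3 lower. Foxa3, a forkhead factor that drives mucous genes, did not stand well above background in either non-tumor pool and was at least 12.2-fold higher in Nrf2+/+ tumor and at least 8.99-fold higher in Nrf2-/- tumor. Spdef, the ETS factor required for goblet cells, stood at 2.06 and 1.11, and Creb3l1, a transcription factor of secretory cells, at 2.02 and 0.82. Sox2, which keeps airway identity, was lower, at least 3.45-fold in Nrf2+/+ and at least 1.92-fold in Nrf2-/- tumor. Between genotypes 1 of 25 was past 2-fold in non-tumor lung (Foxa1, bounded at only 1.10-fold higher in Nrf2-/-). Between Nrf2-/- and Nrf2+/+ tumor Spdef stood at -0.44 and Foxa3 at -0.49.

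Genes linked to the type 2 cytokines IL-4 and IL-13, to which Slc26a4, Muc5ac and Retnla are known to respond, were looked up in a list of 22. In Nrf2-/- against Nrf2+/+ non-tumor lung 1 of 16 measured was at least 2-fold higher (Ccl17, a chemokine for T cells, 2.93) and 2 lower. In tumor 3 of 13 were higher, Ccl17 (2.22), Retnla (1.59) and Il33 (1.25), and 1 was lower, Arg1 (-1.33). Retnla is also on the goblet and gland list, and Il33 on the list of alveolar type 2 markers. Il13 was dim, with signals of 30.4, 32.7, 42.0 and 25.3 in Nrf2+/+ and Nrf2-/- non-tumor lung and Nrf2+/+ and Nrf2-/- tumor, the last not well above background. Il4ra, the shared receptor chain, stood at 0.15 in non-tumor lung and 0.96 in tumor between genotypes. Among the anion transporters related to Slc26a4, Slc26a9 was higher in tumor (2.83 in Nrf2+/+ and 1.59 in Nrf2-/-) and differed between genotypes by 0.87 and -0.37, unlike Slc26a4. Cftr, the chloride channel, was at least 4.24-fold lower in Nrf2+/+ tumor and stood at -2.02 in Nrf2-/- tumor. Agr3, next to Agr2 in the genome and known from ciliated cells, was lower in tumor (-1.99 and -2.67).

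Markers of other cell types moved with tissue. In tumors of either genotype 17 of 18 markers of ciliated cells lay at least 2-fold lower (medians -2.10 and -2.57), and their summed relative level was 97.8 and 91.4 in Nrf2+/+ and Nrf2-/- non-tumor lung against 35.7 and 34.7 in the tumors. The defining factor Foxj1 remained well above background on all 4 arrays. Airway smooth muscle markers were lower for 5 and 7 of 9 genes (medians -1.08 and -1.49), and alveolar type 1 markers for 7 and 3 of 11. Alveolar type 2 markers were at least 2-fold higher for 9 and 6 of 14 genes (medians 1.12 and 0.92), with summed relative levels of 789 and 903 in non-tumor lung and 1425 and 1493 in tumor. Chia1, with tumor differences of -2.08 and -2.02, lay near the ciliated median in Nrf2+/+ and above it in Nrf2-/- mice. The part of these marker differences in the values of the secretory genes was not tested. In Nrf2-/- against Nrf2+/+ non-tumor lung 1 of 18 ciliated markers was past 2-fold lower and none higher. Of the alveolar type 2 markers 0 of 14 were past it, as were 0 of 9 airway smooth muscle markers. Type 1 (1 of 11), basal (1 of 9) and leukocyte markers (1 of 8) had 1 gene higher each and none lower. The other goblet and gland genes had 3 of 19 higher and 1 lower (median 0.34). In tumor 6 of 15 ciliated markers were lower in Nrf2-/- (median -0.85), beside which Scgb1a1 stood at -0.91 and Chia1 at -0.05. Basal cell markers were higher in Nrf2-/- than in Nrf2+/+ tumor for 3 of 8 genes (median 0.61), where 4.29% of all measured genes were. The basal list shares Pdpn with the alveolar type 1 list, and whether basal cells differed was not tested. Neuroendocrine markers were few (3 to 6 measured), and leukocyte markers were past 2-fold for 0 to 2 of 7 or 8 genes in each comparison.

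**Figure D4:**
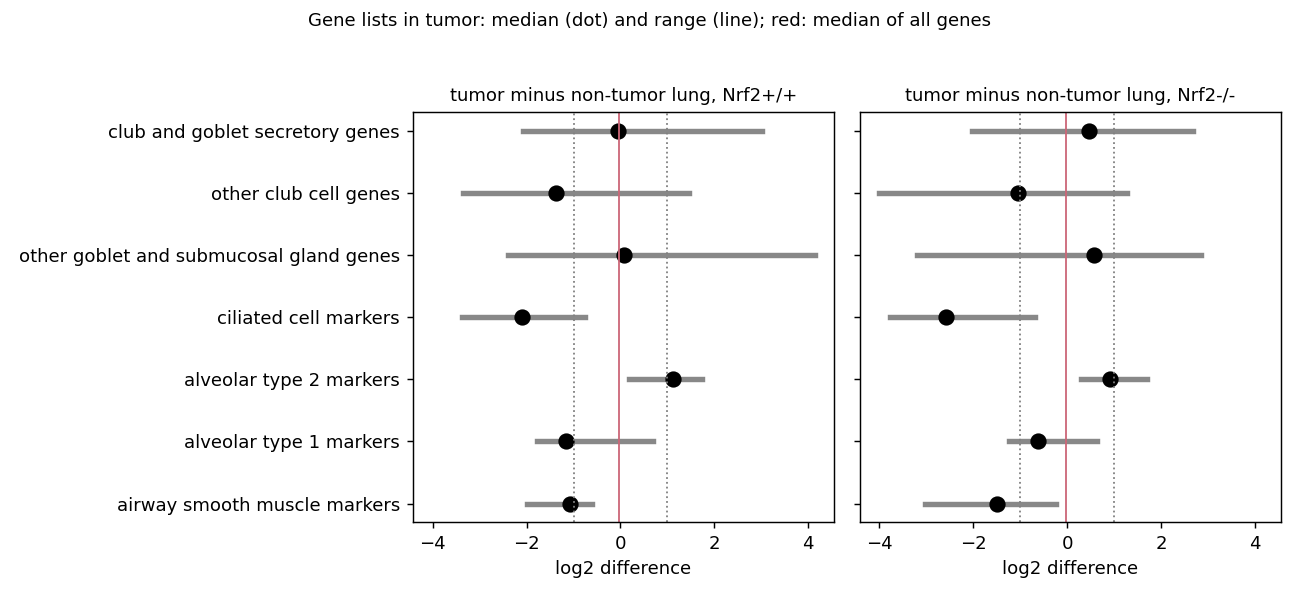
Median (dot) and range (line) of log2 differences between tumor and non-tumor lung for the secretory genes and 6 other gene lists, Nrf2+/+ on the left and Nrf2-/- on the right, with the median of all genes as a red line and 2-fold as dotted lines. The secretory genes span from -2.08 to 3.02 and from -2.02 to 2.67 around medians of -0.06 and 0.46, while the ciliated medians are -2.10 and -2.57 and the type 2 medians 1.12 and 0.92.

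For the 6 members well above background on all 4 arrays, the genes with the most similar profile were sought among 12291 genes, by the root mean square difference of log2 levels centred on each gene's mean over the 4 arrays. With 4 points a close match is easy to reach, so these names describe the profiles only. Scgb1a1 was most like Tmem44 (0.059), Acoxl (0.070) and Ddc (0.086), and Scgb3a1 most like Obsl1 (0.10), Podxl2 (0.13) and Sult4a1 (0.15). Muc5b was most like Proz (0.12), Slc5a1 (0.12) and Il1r2 (0.17), all lower in the other 3 pools than in Nrf2-/- tumor. Muc5ac was closest to Ms4a7 (0.037), the membrane mucin Muc20 (0.081) and Rap1gap (0.089). Chia1 was closest to Hspb7 (0.074), the ciliary dynein Dnah9 (0.076) and Col8a2 (0.078). Slc26a4 had no match as near: its 3 nearest were Sprr1a, a cornified-envelope protein (0.23), Ccl17 (0.26) and Saa3, an acute-phase protein (0.30). Saa3 and Ccl17 shared with it a higher level in Nrf2-/- non-tumor lung (2.53 and 2.93) and in Nrf2-/- tumor (1.89 and 2.22).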

How the data were processed

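Cy3-labelled RNA of each pool (500 ng) was read on an Agilent mouse array (design 014868), per the labels' protocols and file headers. The deposited values are spot intensity, read by the authors with Feature Extraction 10.7.3.1; this processed signal is background-subtracted and detrended, per the file headers, and annotation used mm9. The value table equalled the processed signal within 0.5%, so it was unlogged and uncentred. Whether arrays were normalized to each other is not given in the sources used here.

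From these, log2 processed signal less the array's 75th percentile (760, 742, 555 and 584) was used; 4 non-uniform probes of 41174 were left out, replicate spots of 245 probes were averaged, and each gene took its probe of highest mean level. Symbols came from RefSeq accessions (GRCm38.p6): 26686 probes had 1 and 14484 none. A gene entered a comparison when at least 1 of its 2 arrays was well above background. The additive fit used limma 3.58.1 (R 4.3.3; Python 3.11.15, pandas 2.3.3, numpy 2.4.6, matplotlib 3.10.9), tested on simulated data.

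Named genes were all members, list examples picked after their values were seen, and the 3 nearest profiles per member. Members and lists were chosen with earlier results of these data known. Some results for single genes are left out, and such genes do not enter the list counts. Alternatives were median, quantile, bright-probe and spike-in scaling, normexp correction (offset 50), the value table, the mean of all probes, and 2 filters on dim probes. Spike-in scaling (5 probes) was chosen after seeing the data; normexp was run on median signals because the files used here carry no mean signal column.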

Additional observations from a re-analysis of the deposited data

Results flagged for a closer look

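A few members moved in opposite directions in the 2 genotypes or the 2 tissues; with 1 array per group none of these differences was tested, and each involves at least 1 spot not well above background. Agr2 was lower in Nrf2+/+ tumor (-1.09) and higher in Nrf2-/- tumor (0.46) against non-tumor lung, 1.55 apart; equally, its genotype difference was -0.35 in non-tumor lung and 1.20 in tumor. Bpifb1 was lower in Nrf2-/- than Nrf2+/+ non-tumor lung (-0.46) and higher in tumor (0.76), 1.22 apart. The dim second probe of Muc5ac stood at -0.92 in Nrf2+/+ and 0.51 in Nrf2-/- tumor, and between genotypes at -0.14 in non-tumor lung and 1.29 in tumor, 1.43 apart; the brighter Muc5ac probe did not show this.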

How the results depend on the processing

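No paired analysis was possible because each group has 1 array and the numbers in the labels run across groups. Of 324 recomputed member differences under 9 alternatives, 288 moved by less than the software error and 36 by more. Many of the 288 could not move, because the 2 filters on dim probes leave single differences unchanged. The mean of all probes can change only Muc5ac and Chia1, and the value table is nearly the same signal. Of the 17 differences past 2-fold, 0 changed sign. Differences near 0 of Scgb3a1, Bpifa1, Chia1 and Muc5ac changed sign in some settings. Of the 17, 11 stayed past 2-fold in the same direction under all 9, with the 2 filters counted as leaving each difference unchanged. Both tumor differences of Bpifa1 are among these 11. Bpifa1 was well above background on only 2 arrays, so the filter for genes above background on all 4 arrays leaves it out. Members at least 2-fold lower in Nrf2+/+ tumor numbered 1 in place of 3 with normexp correction and 1 over genes above background on all 4 arrays; in Nrf2-/- tumor 4 in place of 2 with spike-in scaling. Tumor differences 2-fold apart between genotypes numbered 5 in place of 3 with median scaling, and 1 with normexp or over genes on all 4 arrays. The additive fit's tissue term, which called 0 members, called 5 with median scaling, 4 with normexp, 2 with spike-in scaling, 4 over genes on all 4 arrays and 3 without a filter, where it called 2888, 3332 and 1525 of 20553, 3852 of 16287 and 769 of 32300 genes; its genotype term, also at 0, called 1 member with median scaling, with normexp and over genes on all 4 arrays, beside 173, 81 and 150 genes. The median over all genes shifted by 0.31, 0.13, 0.16 and -0.02 in the 4 comparisons with median scaling, by -0.24, -0.28, -0.04 and -0.08 with spike-in scaling, and by 0.12 in Nrf2+/+ tumor with normexp. Signal over background limits Agr2, Bpifb1, Bpifa1 and Muc5ac; the number of arrays limits every value.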
